A study of Mus musculus with 8 samples.

Results

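The heat shock proteins are families of molecular chaperones, and the DnaJ proteins are the cochaperones that deliver unfolded proteins to one of those families, HSP70. The genes were taken by name from the array: every gene whose symbol begins with Dnaj or with Hsp followed by a, b, d, e, h or a number, apart from 5 that reside in the endoplasmic reticulum (Hspa5, Hsp90b1, Dnajb9, Dnajb11 and Dnajc3). This gave 69 genes with 131 probes. A gene counted as measured if some treatment had a probe for it well above background at 12 h and again at 24 h. This held for 58 of the 69 genes, of 15456 genes measured in all, and the brightest such probe stood for the gene. RNA came from RAW264.7, a line of macrophage-like mouse cells transformed by Abelson virus, grown in medium with heat-inactivated serum. Cells received interleukin-13 (IL-13) together with all-trans retinoic acid (ATRA), ATRA alone, IL-13 alone or neither agent (control), and each of these 4 treatments had 1 array at 12 h and 1 at 24 h. IL-13 drives the alternative (M2) activation of macrophages, and ATRA is a ligand of the retinoic acid receptors. The labels call IL-13 cells M2 macrophages, cells with both agents suppressed in M2 polarization, and the ATRA and control cells unpolarized, and they give no dose. Nothing in the labels states that the 8 samples came from separate cultures, and the p-values below rest on the scatter among these arrays alone, which may be technical.

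HSP70 proteins bind exposed hydrophobic stretches of a client protein and release them in a cycle driven by ATP. DnaJ proteins start that cycle, HSP110 proteins and other exchange factors complete it, and HSP90 takes over selected clients such as kinases and the steroid receptors. Small heat shock proteins hold unfolding proteins without ATP, and HSP60 with HSP10 folds proteins inside mitochondria. Some of these genes, Hspa1a and Hspa1b first among them, are nearly silent in unstressed cells and are switched on by heat shock factor 1, whereas Hspa8, Hsp90ab1 and the mitochondrial chaperones are made all the time.

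Levels are given as scaled signals in intensity units, after each array was brought to the same 75th percentile of its probes, and they are compared only within a gene, since probes differ in brightness. Differences are on the log2 scale with limma's standard error, and a gene was called where its p-value, adjusted by the Benjamini-Hochberg method for all 15456 genes, was under 0.05. No treatment was repeated at the same time, and the error is therefore how far a treatment difference at 12 h departed from that at 24 h. Slide 1 held the 12 h arrays and slide 2 the 24 h arrays, so the time and the slide of an array cannot be told apart. Each treatment comparison was made within a slide. Between 54.1% and 61.4% of the probes were well above background on an array, and 0 probes were saturated. All 7 macrophage markers were measured on every array, whereas 0 of 4 epithelial, 0 of 3 neutrophil and 0 of 2 erythroid markers were. The neutrophil marker Ly6g was not on the array. Of the rest, 2 of 4 fibroblast, 1 of 3 T cell and 2 of 3 B cell markers passed the filter, with no signal above 61.9. Among markers that did not pass, the neutrophil gene Ltf had 94.3 with IL-13 at 12 h and 40.9 in control cells at 24 h. The B cell gene Ms4a1 had 68.45 with ATRA at 12 h.

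The heat-inducible HSP70 genes lay lowest in the cells that received ATRA. Hspa1a encodes the major stress-inducible HSP70. Its signal was 3.41 at 12 h and 3.32 at 24 h with ATRA, against 15.2 and 10.8 in control cells. In cells with both agents it was 9.22 at 12 h and 4.10 at 24 h, against 23.9 and 14.3 with IL-13 alone. It was well above background on all 4 arrays without ATRA and on 0 of the 4 arrays with it, and the values of these 2 sets of arrays did not overlap. It therefore passed the filter only through the arrays without ATRA, so its lower level with ATRA is in part what the filter selected. Set against the lowest signal well above background on the ATRA arrays, Hspa1a was at least 1.48-fold lower in ATRA cells than in control cells. The fitted log2 difference, which is no bound because the ATRA arrays were not well above background, was -1.93 ± 0.27 (adjusted p = 0.0428), with -2.16 at 12 h and -1.70 at 24 h. With no filter on dim probes the same difference did not pass (adjusted p = 0.223). As filtered, it was the only call among the 58 genes in that comparison (0 higher and 1 lower), in which 1.77% of all genes were called. The call was lost when any 1 of the 8 arrays was left out (adjusted p between 0.0578 and 0.262) and without the time term (adjusted p = 0.0969).

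In cells with IL-13, ATRA left Hspa1a at least 1.93-fold lower, with a fitted log2 difference of -1.59 ± 0.27 that missed the threshold (adjusted p = 0.0538). Averaged over cells with and without IL-13, a contrast added after the data were seen, Hspa1a was at least 1.69-fold lower with ATRA, with a fitted log2 difference of -1.76 ± 0.19 (adjusted p = 0.00955) that carries the same limits. That call was lost without the control array at 24 h (adjusted p = 0.0593), with no filter on dim probes (adjusted p = 0.0679) and with the normexp background correction (-0.09, adjusted p = 0.75). IL-13 alone gave 0.53 ± 0.27 against control (adjusted p = 0.277). The IL-13 array at 12 h, which had the lowest share of probes well above background (54.1%), had the highest Hspa1a signal. With both agents at 12 h that share was 55.4%. In the other matched pairs the array with ATRA had the lower share. These were 58.6% with ATRA against 59.8% in control cells at 12 h, and 56.8% against 59.5% at 24 h. With both agents at 24 h it was 56.7%, against 61.4% with IL-13. Whether these shares had a part in the Hspa1a signals was not tested.

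Hspa1b, the neighbouring gene with a nearly identical product, could not be separated from Hspa1a. Its probe is annotated to the transcripts of both genes. The signal was 5.67 at 12 h and 9.90 at 24 h with ATRA, against 16.0 and 17.1 in control cells. With both agents it was 12.5 and 7.04, against 23.1 and 13.4 with IL-13 alone. As for Hspa1a, 0 of the 4 arrays with ATRA were well above background and the filter was passed only through those without it. The bound was at least 1.85-fold lower with ATRA than in control cells, and the fitted difference of -1.14 ± 0.42 did not pass (adjusted p = 0.298). A second probe named for Hspa1b is also annotated to the transcripts of both genes. That probe was well above background on 0 arrays, with or without ATRA, with signals of 1.62 to 3.04. A second probe for Hspa1a, which overlaps the first by 30 bases, was likewise well above background on the 4 arrays without ATRA and on 0 of those with it, which gives at least 1.77-fold lower in ATRA cells than in control cells. It shares sequence and arrays with the first and is no separate evidence.

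The probes used for Hspa1a are annotated to the transcripts of that gene alone. The probe used for Hspa1b is shown because its annotation to both genes is the reason that the Hspa1b signal cannot be told apart from Hspa1a. The files place it at chr17:35094200-35094259 on the minus strand (mm9), at Hspa1b, and the 2 probes of Hspa1a at chr17:35106766-35106825 and chr17:35106796-35106855.
Hspa1a and Hspa1b probe: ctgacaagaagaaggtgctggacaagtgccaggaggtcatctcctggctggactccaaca

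Heat shock factors bind inverted repeats of the unit GAA, the heat shock element. Both spacings of a pair of units, GAANNTTC and TTCNNGAA, were searched in the 250 bases before the transcription start in RefSeq's promoter table (GRCm38.p6); each reads the same on either strand and the matches may overlap. The windows of Hspa1a, Hspa1b and Dnajb4 are printed from 5′ to 3′ with the matches in capitals. These 3 genes had lower signals on every array with ATRA than on any without it, and the windows printed hold a match. The first pair is nearly the same sequence. Hspa2, Dnajb14 and Dnajc22 were lower in the same way and are not among the genes with a match. Not every gene had an entry in the promoter table, and a gene without an entry could not show a match. Dnaja1, which was higher on every array with ATRA, is among them. Hspa1a lies at chr17:34972157-34972406 and Hspa1b at chr17:34959239-34959488, both on the minus strand. For Dnajb4 the window shown, chr3:152193846-152194095 on the minus strand, belongs to the one of its listed starts that holds a match.
Hspa1a promoter: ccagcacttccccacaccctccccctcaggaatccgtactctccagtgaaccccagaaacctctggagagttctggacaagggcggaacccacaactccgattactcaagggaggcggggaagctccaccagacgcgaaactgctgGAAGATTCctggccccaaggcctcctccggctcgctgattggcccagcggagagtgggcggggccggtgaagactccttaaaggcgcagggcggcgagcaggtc
Hspa1b promoter: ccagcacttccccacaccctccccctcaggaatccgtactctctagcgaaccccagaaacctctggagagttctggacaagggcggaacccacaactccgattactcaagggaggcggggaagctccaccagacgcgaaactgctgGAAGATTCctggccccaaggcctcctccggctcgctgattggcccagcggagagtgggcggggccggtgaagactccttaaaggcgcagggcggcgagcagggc
Dnajb4 promoter: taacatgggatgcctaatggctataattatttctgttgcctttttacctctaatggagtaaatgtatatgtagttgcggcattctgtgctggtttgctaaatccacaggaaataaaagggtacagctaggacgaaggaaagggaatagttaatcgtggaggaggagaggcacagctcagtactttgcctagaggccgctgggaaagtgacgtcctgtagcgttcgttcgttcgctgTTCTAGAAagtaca

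The Hspa1a and Hspa1b windows were 98.8% identical. They differed at 3 of 250 positions, C44T, T47C and T249G from Hspa1a to Hspa1b, counted from the 5′ end of the printed sequence. The match began 104 bases before the start in both, and 14 bases before it in Dnajb4. Of the 58 genes, 46 had an entry in the table, with 61 windows in all. A pair of units was present in 14 of the 61 windows (23%), against 12.8% of all 32851 windows. It was found for 12 genes: Hspa1a, Hspa1b, Hsph1, Hspd1, Hspe1, Hspb1, Hspb6, Dnaja1, Dnajb4, Dnajb6, Dnajc10 and Dnajc27. Not all of the 14 windows are separate, since Hsph1 and Dnajb6 each gave 2 overlapping windows and those of Hspd1 and Hspe1 also overlap. A run of 3 units in the same spacing was present in 4 of the windows, those of Hspd1 and Hspe1, which overlap each other, and 2 overlapping windows of Dnajb6, against 0.466% of all windows. A match is a sequence description only.

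**Figure D1:**
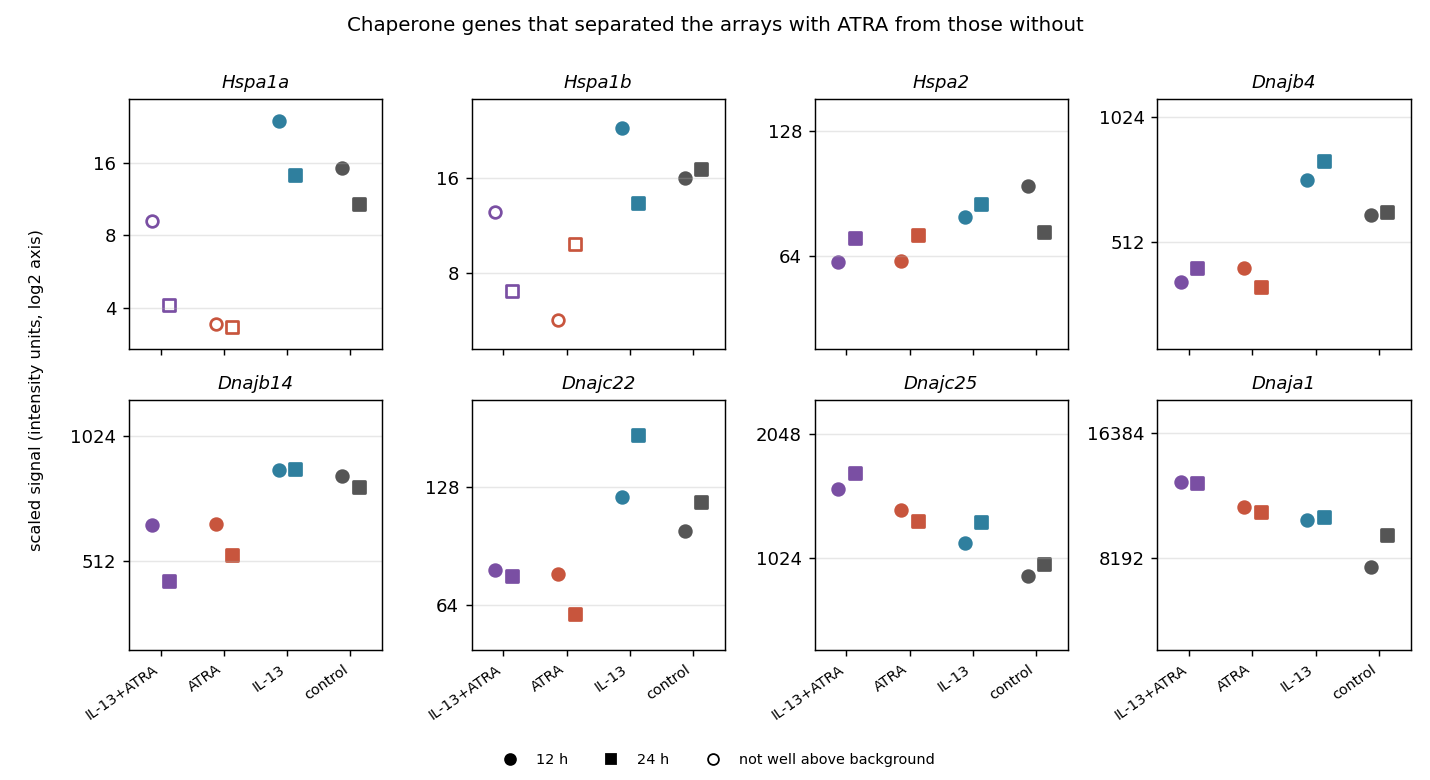
Scaled signal (log2 axis) of 8 genes on each array, by treatment, with circles for 12 h, squares for 24 h and open symbols where the probe was not well above background. Hspa1a, Hspa1b, Hspa2, Dnajb4, Dnajb14 and Dnajc22 lay lower on all 4 arrays with ATRA than on any array without it, and Dnajc25 and Dnaja1 lay higher.

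Among the DnaJ genes, the cochaperones Dnajb4, Dnajb14 and Dnajc22 were lower with ATRA and Dnajc25 was higher. Dnajb4 is a cytosolic class B protein that works with HSP70. Its signal was 411 at 12 h and 444 at 24 h with both agents, against 720 and 802 with IL-13 alone. With ATRA alone it was 443 and 399, against 594 and 605 in control cells. Dnajb4 fell in cells with both agents against IL-13 (log2 difference -0.83 ± 0.12, adjusted p = 0.0395), with differences of -0.81 at 12 h and -0.85 at 24 h. It was the only one of the 58 genes called in that comparison, in which 2.59% of all genes were called. The ATRA difference in the absence of IL-13 was -0.51 ± 0.12 (adjusted p = 0.129), and the 2 differences were not shown to differ (interaction -0.32 ± 0.17, adjusted p = 1). The call was lost when any 1 of the 8 arrays was left out (adjusted p between 0.0585 and 0.213). Of the other 2 probes for Dnajb4 that passed the filter, both were also lower with both agents than with IL-13, by 1.28 and by 0.55 on the log2 scale. The difference of 1.28 came from a dim probe and rested largely on 1 array. That probe had 70.35 at 12 h and 24.98 at 24 h with IL-13, against 19.64 and 15.11 with both agents. The probe used lies at chr3:151847247-151847306 (mm9, minus strand).

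Dnajc25 is a DnaJ protein of class C, which is predicted to span a membrane. Its signal was 1504 at 12 h and 1642 at 24 h with both agents, against 928 and 993 in control cells. ATRA alone gave 1342 and 1261, and IL-13 alone gave 1114 and 1253. The level was thus highest with both agents and lowest in control cells at either time. Dnajc25 rose with both agents against control (log2 difference 0.71 ± 0.12, adjusted p = 0.0289), with differences of 0.70 at 12 h and 0.73 at 24 h. It was the only call among the 58 genes in a comparison that called 8.42% of all genes. Its only probe lies at chr4:59030554-59030613 (mm9, plus strand). Leaving out an array ended this call in 6 of 8 cases, all but the 2 IL-13 arrays, with adjusted p between 0.0608 and 0.175.

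Averaged over cells with and without IL-13, the ATRA contrast called 5 of the 58 genes, 1 higher and 4 lower, and 8.33% of all genes. Besides Hspa1a these were Dnajb4 (-0.67 ± 0.09, adjusted p = 0.0145), Dnajb14 (-0.57 ± 0.10, adjusted p = 0.0339), Dnajc22 (-0.78 ± 0.16, adjusted p = 0.0437) and Dnajc25 (0.42 ± 0.08, adjusted p = 0.0409). Dnajb14, a class B protein anchored in the membrane of the endoplasmic reticulum, had signals of 459 to 630 on the arrays with ATRA and of 774 to 854 on those without. Dnajc22 had 60.5 to 78.5 with ATRA and 98.8 to 174 without. The other 2 probes of Dnajb14 had the same sign in both ATRA comparisons. Dnajc22 was not called with quantile normalization or on the authors' deposited log2 values (adjusted p = 0.0542 for each), Dnajb14 not with probe averages (adjusted p = 0.0717) and Dnajc25 not with normexp (adjusted p = 0.0571). All of these calls except that of Hspa1a were lost in at least 5 of the 8 fits that left out an array, and between 0 and 5 of the 58 genes were then called, 0 of them without the control array at 24 h.

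The arrays with ATRA did not overlap those without it for 10 of the 58 genes. For 6 genes they were lower (10.3%, against 7.49% of all genes): Hspa1a, Hspa1b, Hspa2, Dnajb4, Dnajb14 and Dnajc22, of which Hspa1a and Hspa1b passed the filter only through the arrays without ATRA. For 4 genes they were higher (6.9%, against 5.34% of all genes): Dnaja1, Dnajc21, Dnajc25 and Hspbp1. Both shares lay near those of the whole array. Hspa2, an HSP70 best known from the testis, had 61.8 to 71.6 with ATRA and 72.8 to 94.1 without it. Its mean ATRA difference of -0.32 ± 0.12 missed the threshold (adjusted p = 0.188). The arrays overlapped on a second Hspa2 probe, with 22.3 with both agents at 24 h, against 19.1 in control cells at 24 h. Hspbp1, a nucleotide exchange factor of HSP70, had 4780 to 5440 with ATRA and 2720 to 4520 without it, with a mean ATRA difference of 0.48 ± 0.14 that missed the threshold (adjusted p = 0.102). Over the 58 genes the median difference between ATRA and control was 0.06, against -0.01 over all genes. It was 0.00 without the control array at 12 h (-0.04 over all genes), and 0.18 with median scaling (0.11 over all genes).

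**Figure D2:**
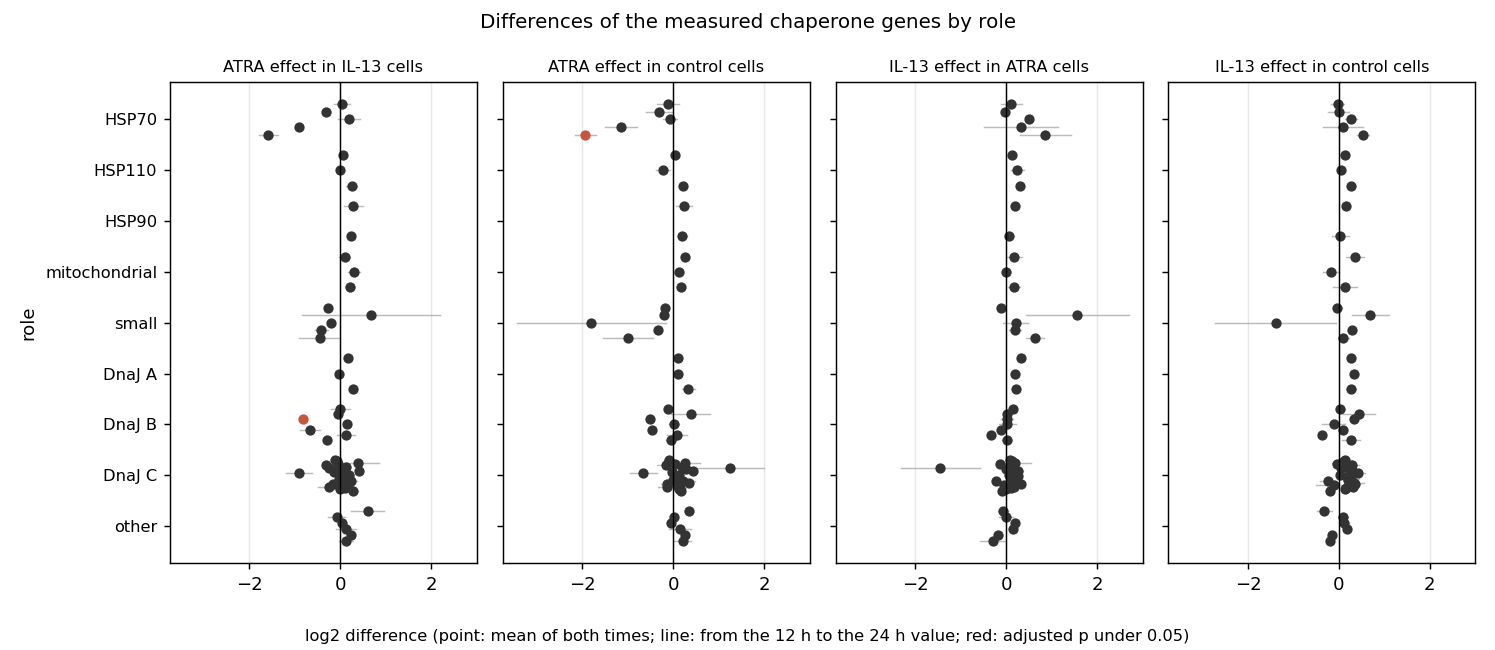
Log2 differences of the 58 genes in 4 comparisons, by role; points are means of both times, lines run from the 12 h to the 24 h value, and red marks an adjusted p under 0.05. Hspa1a, not well above background with ATRA, is the called HSP70 gene in the ATRA effect in control cells (-1.93), Dnajb4 is the called DnaJ B gene in IL-13 cells (-0.83), and most other points lie near 0.

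The main chaperones that unstressed cells make all the time gave 0 calls. Hspa8, the constitutive cytosolic HSP70, had signals of 60978 at 12 h and 55177 at 24 h with both agents, 47976 and 59517 with ATRA, 67162 and 47925 with IL-13, and 61752 and 54103 in control cells. With this probe, the highest and lowest values were those of the IL-13 arrays at 12 h and at 24 h, which differed 1.40-fold. No treatment kept its rank between the times. With a second Hspa8 probe the level was highest with both agents at both times (27950 and 26430) and lowest in control cells at 12 h (20160). Hsph1, an HSP110 exchange factor that heat induces strongly, varied least among the main cytosolic chaperones, with a range of 1.17-fold over the 8 arrays. Its difference between ATRA and control was 0.04 ± 0.08 (adjusted p = 0.911).

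The HSP90 pair was higher in sign with ATRA in both backgrounds. Hsp90aa1, the inducible form, had 43437 at 12 h and 42213 at 24 h with both agents, against 36574 and 36061 with IL-13. With ATRA alone it had 38473 and 43199, against 31339 and 40351 in control cells. Hsp90ab1, the constitutive form, had 31063 and 29810 with both agents, against 29375 and 21198 with IL-13. With ATRA alone it had 26575 and 26351, against 25334 and 19784 in control cells. All 8 of these paired values were higher with ATRA, yet the differences between ATRA and control were 0.20 for Hsp90aa1 (adjusted p = 0.61) and 0.24 for Hsp90ab1 (adjusted p = 0.557), and neither passed.

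None of the mitochondrial chaperones was called. Hspd1 (HSP60) had a difference of 0.13 between cells with both agents and control cells, Hspe1 (HSP10), its partner from the same shared promoter region, 0.45, and Hspa9 (mortalin, the mitochondrial HSP70) 0.35, with adjusted p of 0.576, 0.141 and 0.234. The size of the Hspd1 difference depended on the probe: a second probe gave 0.43 for Hspd1, and a second probe of Hspa9 gave 0.44. That Hspd1 probe had 10600 to 12410 on the arrays with ATRA and 7870 to 8776 on those without it. With the probes used, the ranges of the 3 genes over the 8 arrays were 1.40-fold, 1.47-fold and 1.58-fold. Dnajb1, the main DnaJ partner of Hspa8 and a heat-induced gene, had a range of 1.37-fold and a difference of -0.04 between ATRA and control (adjusted p = 0.938). Dnajb6, which suppresses protein aggregation, had a range of 1.25-fold.

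**Figure D3:**
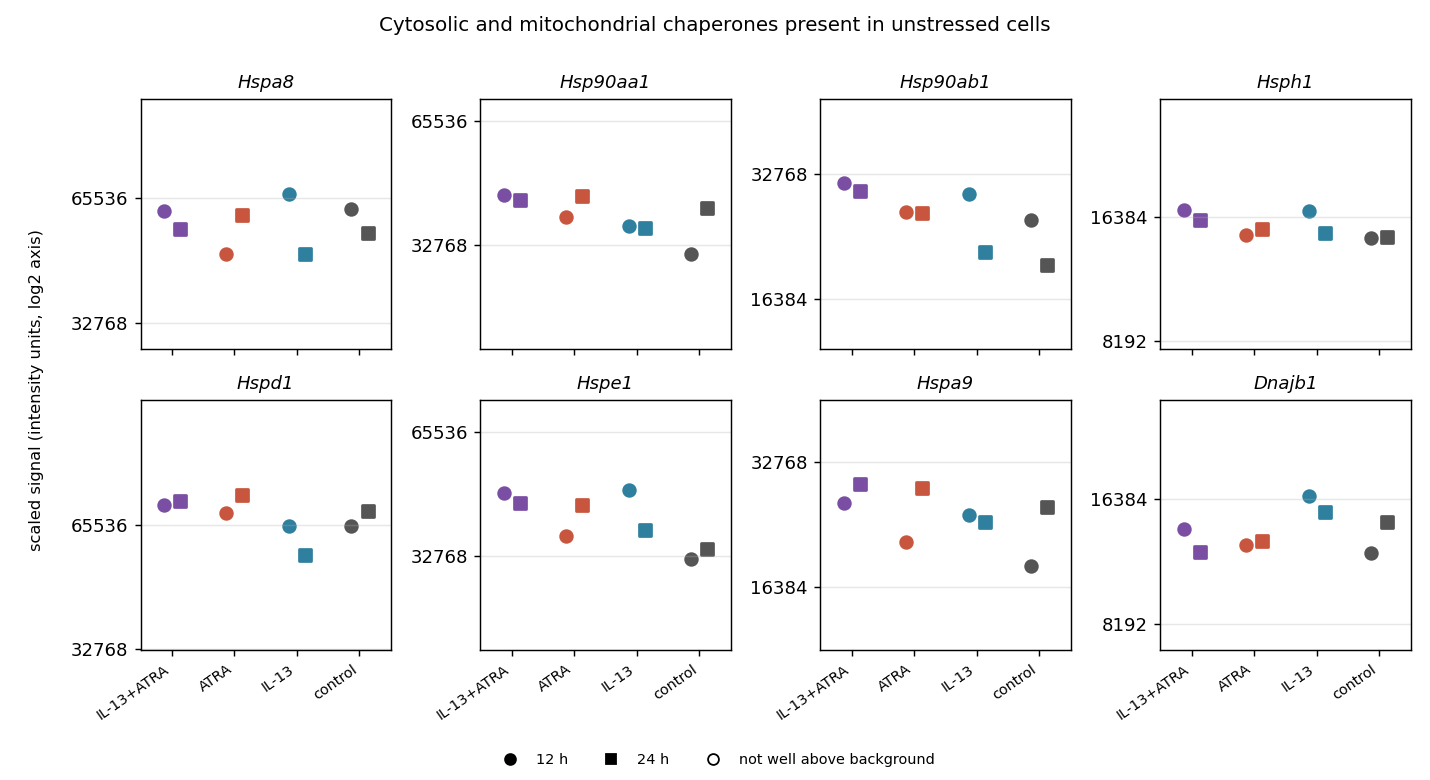
Scaled signal (log2 axis, each panel at least 4-fold high) of 8 cytosolic and mitochondrial chaperone genes on each array, by treatment, with circles for 12 h and squares for 24 h. The 8 arrays differ between 1.17-fold (Hsph1) and 1.58-fold (Hspa9), and the treatments overlap in most panels.

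Several further genes were higher with both agents than in control cells without passing the test. Hspa4, the main HSP110, had 14227 at 12 h and 16488 at 24 h with both agents, against 10357 and 11056 in control cells (log2 difference 0.52 ± 0.12, adjusted p = 0.0579). Dnaja1, a class A cochaperone of HSP70, had 12496 and 12442, against 7792 and 9325 (0.55 ± 0.12, adjusted p = 0.0561). Dnaja3, the mitochondrial class A protein, had 3839 and 4536, against 2789 and 3408 (0.44 ± 0.10, adjusted p = 0.0632). With the probes used, both arrays with both agents lay above both control arrays in each of these 3 genes. Another Hspa4 probe went the other way (-0.24), with 1926 and 2111 with both agents, against 2670 and 2133 in control cells. The remaining Hspa4 probes gave 0.36 and 0.01. Dnaja2, the other cytosolic class A protein, had a difference of 0.32 ± 0.10 (adjusted p = 0.121). With limma's trend and robust settings 6 of the 58 genes were called in this comparison, 4 higher and 2 lower.

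IL-13 called 0 of the 58 genes against control in limma's test, and 1.23% of all genes; at an unadjusted p under 0.05 there were 6 (24.3% of all genes), each of them higher in IL-13 cells. These were Dnaja2, Dnaja3, Dnajb4, Dnajc14, Dnajc24 and Dnajc25. Their log2 differences lay between 0.27 and 0.36, and the share of all genes that was higher at that threshold was 11.6%. In sign, 44 of the 58 genes were higher in IL-13 cells (75.9%, against 52.1% of all genes) and the median difference was 0.14, against 0.02 over all genes. At both times 33 of the 58 genes were higher (56.9%, against 36.9% of all genes). Quantile normalization gave 41 of 58 higher and a median of 0.11, against 0.02 over all genes, and median scaling 52 of 58 and 0.32, against 0.20. The median also moved with single arrays: it was 0.08 without the control array at 12 h, 0.21 without that at 24 h and 0.21 without the IL-13 array at 24 h, against 0.00, 0.04 and 0.04 over all genes.

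Cells with both agents against ATRA cells gave 0 calls among the 58 genes in limma's test, where 0.356% of all genes were called, and 5 higher and 1 lower at an unadjusted p under 0.05 (13.1% of all genes). Averaged over cells with and without ATRA, IL-13 gave 0 calls (5.36% of all genes), with 12 higher and 1 lower at an unadjusted p under 0.05 (31.5% of all genes). The arrays with IL-13 lay wholly above those without it for 6 genes (10.3%, against 9.92% of all genes), which were Dnaja2, Dnajc2, Dnajc14, Dnajc17, Dnajc19 and Hspa1l. They lay wholly below for 1 gene (1.72%, against 6.27%), the membrane-bound class B protein Dnajb12. On a second Dnajb12 probe they overlapped, with 446 with IL-13 at 12 h, against 414.5 in control cells at 24 h. The second probe of Dnajc14 overlapped as well, whereas those of Dnajc2 and Dnajc17 did not. With the probe used, Dnajc14 had 521 to 634 with IL-13 and 400 to 479 without it (0.35 ± 0.08, adjusted p = 0.069). Dnajc2, a ribosome-associated cochaperone that works with Hspa14, had 7810 to 9460 with IL-13 and 6880 to 7730 without it. Hspa14 itself varied 1.24-fold over the 8 arrays. Hspa1l, the HSP70 gene next to Hspa1a on chromosome 17 and known from the testis, had 17.0 to 22.8 with IL-13 and 12.8 to 16.6 without it, and it differed by -0.06 ± 0.17 between ATRA and control (adjusted p = 0.911).

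Among the small heat shock proteins 5 of 8 were measured, and 0 were called in any comparison. Hspb1 (HSP27) was dim, with 5.28 at 12 h and 12.1 at 24 h in ATRA cells, against 15.3 and 16.5 in control cells, and it was well above background on 6 arrays (-0.99, adjusted p = 0.262). Hspb6 and Hspb7, known from muscle, had the widest ranges of all 58 genes, 10.9-fold and 8.39-fold. Each range rested on 1 array. Hspb6 had 105 in control cells at 24 h and 9.66 to 21.1 on the other 7 arrays. Hspb7 had 105 with both agents at 24 h and 12.5 to 30.5 on the other 7, while a second Hspb7 probe had 9.0 on that array. Dnajc28 had 49.1 in ATRA cells at 12 h and 9.82 to 16.5 elsewhere, and its other 2 probes were lower in ATRA than in control cells, by 0.83 and by 0.88 on the log2 scale. The high array of each of these 3 genes belonged to a different treatment. Hspb9 and Hspb11 had ranges of 1.36-fold and 1.62-fold.

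The range over the 8 arrays was near that of all genes. In all, 46 of the 58 genes varied less than 2-fold (79.3%, against 71.6% of all genes), with a median range of 1.51-fold, against 1.58-fold over all genes. The 24 DnaJ C genes had a median range of 1.37-fold, and Dnajc5, the cysteine string protein of secretory vesicles, the smallest at 1.13-fold. Dnajc7, which binds both HSP70 and HSP90, stood out on 1 array, with 3104 with both agents at 12 h, against 1409 in control cells at that time, and 1746 against 2018 at 24 h. Hspa4l had a range of 1.38-fold, Hspa13, an HSP70-like protein of microsomes, 1.46-fold, and Hspa12a and Hspa12b, distant HSP70 relatives, 2.13-fold and 2.28-fold; the Hspa12a probe used was the only one of 4 that passed. The 11 genes that were not measured were Dnaja4, Dnajb3, Dnajb7, Dnajb8, Dnajb13, Dnajc5b, Dnajc5g, Dnajc6, Hspb2, Hspb3 and Hspb8, of which Dnajc5b was well above background on 2 arrays and the others on 0.

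**Figure D4:**
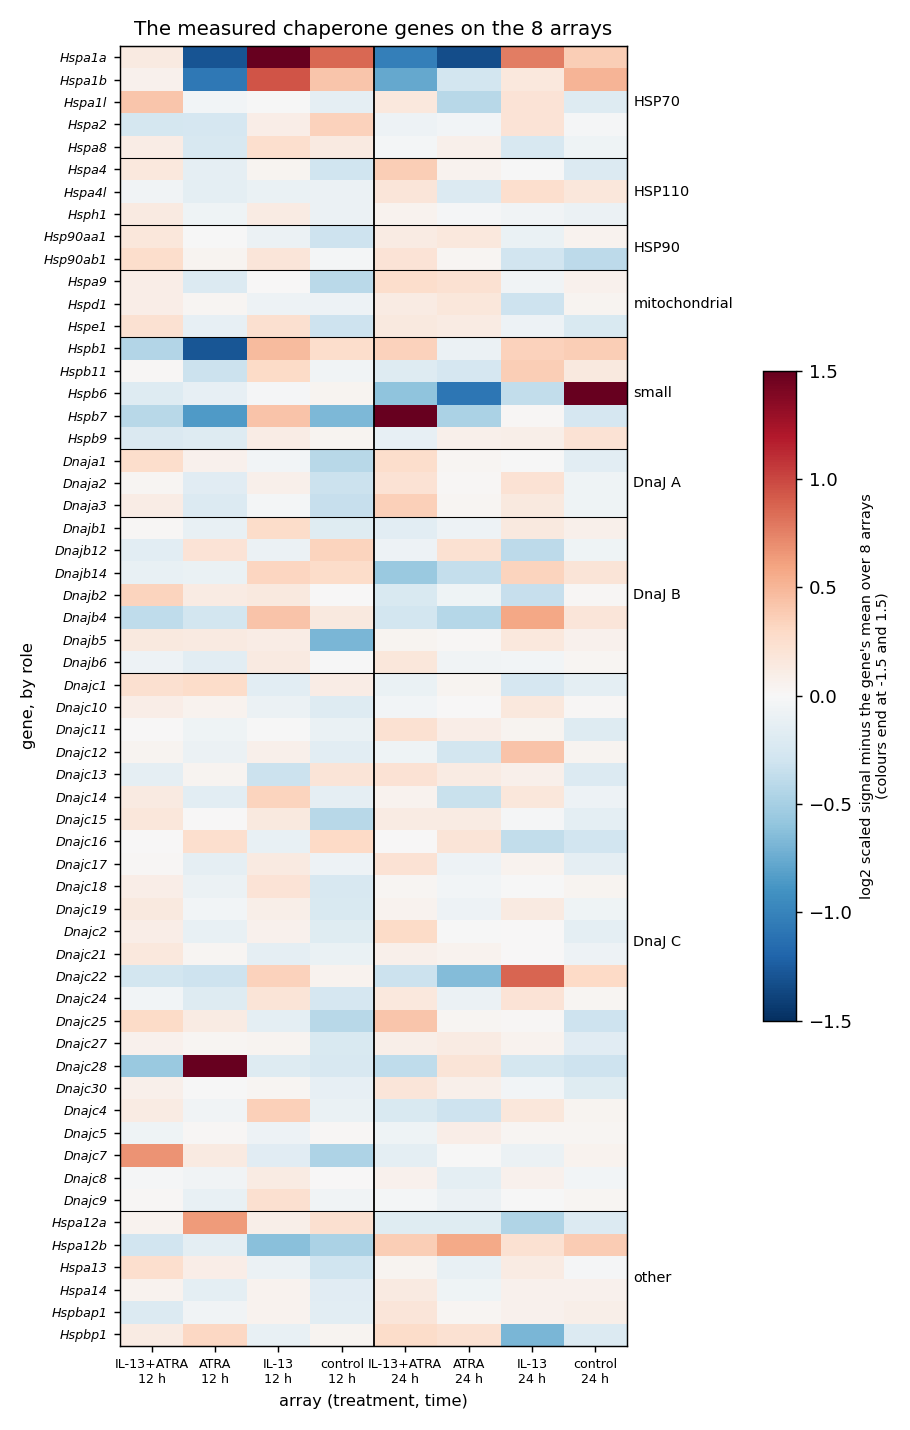
Log2 scaled signal of the 58 genes minus each gene's mean over the 8 arrays, with arrays in columns (12 h left, 24 h right) and genes in rows by role. Hspa1a and Hspa1b lie below their means in ATRA cells at both times, single dark cells mark Hspb6, Hspb7 and Dnajc28, and most other rows are pale.

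Neither time nor the interaction of IL-13 and ATRA gave a call among the 58 genes. Between 24 h and 12 h, 0 of the 58 genes and 0% of all genes were called in limma's test, with 3 higher and 3 lower at an unadjusted p under 0.05 (12.1% of all genes). The largest of these differences was that of Hspa12b, 0.77 ± 0.08 (adjusted p = 0.268), which was higher at 24 h with every treatment: 8.37, 9.25, 6.66 and 7.38 at 12 h with both agents, ATRA, IL-13 and neither, and 13.2, 15.2, 12.0 and 13.3 at 24 h. The interaction of IL-13 and ATRA called 0 of the 58 genes in limma's test and 0.0194% of all genes, and 0 at an unadjusted p under 0.05 (3.66% of all genes). The change of the IL-13 effect with time called 0 of the 58 genes and 0% of all genes, with 0 higher and 3 lower at an unadjusted p under 0.05 (9.84% of all genes). The change of the ATRA effect with time also called 0, with 1 higher and 4 lower at an unadjusted p under 0.05 (9.39% of all genes). Of these 5 genes Hspb1 had the largest difference, 1.01 ± 0.15 (adjusted p = 0.517). That difference rests on signals near background. At 12 h Hspb1 was not well above background with ATRA (5.28) or with both agents (9.43). Hspb6 (-1.68 ± 0.89) and Hspb7, whose ranges each rested on 1 array, differed more than Hspb1 but with larger errors.

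Other genes of the pathway gave few calls. Hsf1, the heat shock factor that activates Hspa1a, had signals of 4395 and 4657 with both agents at 12 h and 24 h, 4814 and 5437 with ATRA, 4840 and 4255 with IL-13, and 5215 and 5732 in control cells. Its difference between ATRA and control was -0.10 ± 0.13 (adjusted p = 0.818), and neither Hsf1 nor Hsf2, the heat shock factors that were measured, was called. Of 25 cochaperones of HSP70 and HSP90, all measured, 2 rose with both agents against control and 0 fell (8.42% of all genes were called), so that the share was near that of all genes: Stip1, the adaptor between HSP70 and HSP90 (0.62 ± 0.12, adjusted p = 0.0423), and Ppid, an HSP90-bound cyclophilin (0.56 ± 0.12, adjusted p = 0.0476). Stip1 had 8057 and 8930 with both agents, against 5381 and 5630 in control cells. Bag3, a heat-induced HSP70 exchange factor, had -0.32 ± 0.18 in that comparison (adjusted p = 0.298) and Chordc1, an HSP90 partner, 0.40 ± 0.10 (adjusted p = 0.0715). The 14 genes of the chaperonin TRiC and of prefoldin were all higher in sign with both agents than in control cells, with a median of 0.29 and 0 calls, although quantile normalization left 11 of 14 higher. The 7 mitochondrial partners and proteases were likewise higher, with a median of 0.32 and 0 calls. Of the 5 other heat-induced genes measured, 0 were called.

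Of 11 immediate early genes, which respond to handling of the cells within minutes, 0 rose and 2 fell in ATRA cells against control, in which 1.77% of all genes were called, and the median difference was -0.03. Fos had 1315 and 1072 with ATRA, against 3403 and 2799 in control cells (log2 difference -1.38 ± 0.18, adjusted p = 0.0367), and Dusp1 214 and 199, against 514 and 485 (-1.28 ± 0.10, adjusted p = 0.0162). Others of the list lay the opposite way without passing: Egr1 had 2919 and 4226 with ATRA, against 1470 and 1016 in control cells (1.52 ± 0.36, adjusted p = 0.125), and Ier3 had 1159 and 1339, against 354 and 572 (1.47 ± 0.32, adjusted p = 0.105). Whether this had a part in the level of Hspa1a was not tested.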

How the data were processed

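Total RNA of 8 RAW264.7 samples was hybridized to one-colour Agilent arrays of design 014868. Per the file headers, the authors extracted them with Feature Extraction 10.7.1.1, whose background-subtracted processed signal (intensity) and other 0 or 1 flags per spot were deposited without normalization between arrays. The authors also deposited a log2 table, an alternative here; its columns shared a minimum of 0.752 and a maximum of 18.2, with medians of 4.574 to 4.576, and followed their own arrays with a Spearman correlation of at least 0.999996. How its values were centred is not given in the sources used here.

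Control spots were removed (43379 spots of 41174 probes remained), and spots with a flag for non-uniformity or population outliers were dropped, which left 49 probes with a missing value and 0 of the 58 genes among them. Signals were averaged per probe and scaled to the 75th percentile of each array (431 to 713), and 24043 probes passed the filter. Symbols came from RefSeq accessions for 27668 probes, symbols for 5589 and synonyms for 471, and 7446 kept the file's name. limma 3.58.1 in R 4.3.3 fitted a term per treatment and one for time, with 3 residual degrees of freedom, 2.41 prior degrees of freedom and a prior SD of 0.15; the time term is the replicate block, since the 12 h arrays share slide 1 and the 24 h arrays slide 2. A model with pairwise interactions left 1 residual degree of freedom. The fit was also run on simulated data drawn under its own assumptions, which therefore cannot test whether those assumptions hold for these arrays. Precision is limited by the number of arrays (2 for each treatment).

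For a gene not well above background on either array of one treatment, its bound was the brighter treatment's mean log2 signal against the mean, per array, of the higher of the gene's own signal and the lowest signal well above background. The genes, the lists and the rule for naming genes (all genes called, the 5 highest and 5 lowest differences per comparison, the 5 widest ranges and a fixed set of main chaperones) were chosen with earlier results of these data known. Alternatives were other scalings, a normexp correction with an offset of 50, other filters, probe averages, limma's trend and robust settings, other time terms, fewer arrays, and each array left out.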

Additional observations from a re-analysis of the deposited data

How the results depend on the processing

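Against the 1 gene called for ATRA against control, 0 were called with the normexp correction, with no filter, with the filter for all 8 arrays (Hspa1a is then not measured), with no replicate block and with time as a random block, and 0 to 1 when an array was left out, the 1 (without the control array at 12 h) not being Hspa1a. With normexp the Hspa1a difference was -0.17 (adjusted p = 0.892), the offset of 50 being larger than its signals. For IL-13 with ATRA against IL-13, 1 gene was called as reported, 2 with median scaling and with the trend and robust settings, 0 with no filter and with only the arrays compared, and 0 when an array was left out. For IL-13 with ATRA against control, 1 was called as reported, 4 with median scaling, 2 with normexp, with probe averages and with time as a random block, 3 with the filter for all 8 arrays, 6 (4 higher and 2 lower) with the trend and robust settings, 0 with no filter and with only the arrays compared, and 0 to 1 when an array was left out. For the mean ATRA contrast, 5 were called as reported, 0 with no filter, 8 with the trend and robust settings, and 0 to 5 when an array was left out. For the mean IL-13 contrast, 0 were called as reported, 5 with median scaling and with the trend and robust settings, 1 with probe averages, and 0 to 1 when an array was left out. The change of the ATRA effect with time gave 1 call with normexp and 0 as reported. None of the 8 calls of single genes changed sign under any of these settings. Median scaling moved the median difference of all genes to 0.20 for IL-13 against control, 0.19 for both agents against control and 0.11 for ATRA against control. Over all genes, both agents against control then gave 1203 higher and 570 lower calls (497 and 804 as reported) and the mean IL-13 contrast 1126 and 411 (350 and 478 as reported). Fitting no replicate block changed none of the other 7 counts of calls for treatments and their means. Signals near background limit Hspa1a, Hspa1b, Hspb1, Hspb6, Hspa12b and Dnajc28.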
